A study of Arabidopsis thaliana with 12 samples.

Results

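The response of gene expression to salt was compared between an Arabidopsis thaliana line that carries a wheat gene, TaF5H1, and its wild type, Col-0. The quantity of interest is the genotype by salt interaction, the difference between the log2 responses of the line and of wild type to salt. It was measured for 17038 of the 34218 genes of the table, those with a mean FPKM (counts scaled by exon length and library total) of at least 1 over all 12 libraries. A positive interaction means that the line's level under salt is higher than its separate genotype and salt differences add up to, and a negative one that it is lower. Values written below as an interaction or a response are log2 differences, with a standard error (SE) where one follows, and levels are deposited FPKM.

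The 12 libraries were made from leaves of 14-day-old seedlings, with 3 biological replicates in each of 4 groups, per the series description. The salt-treated line was kept for 6 h in 200 mM NaCl, and the untreated line for 6 h in nutrient solution. Salt-treated and untreated wild type had the same 2 treatments. The line carries TaF5H1 under that gene's own promoter, and the labels do not give the number of independent transformants or whether plants were pooled. The labels name no other allele in either genotype. Per its title the study was about the cell wall and tolerance of salt, and the wheat transcript itself was not analysed here.

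Ferulate 5-hydroxylase is the cytochrome P450 that directs phenylpropanoids towards syringyl lignin and sinapate esters. High salt withdraws water and loads the leaf with sodium. Leaves respond through abscisic acid (ABA), dehydration and ion transport genes, while photosynthesis and growth genes are turned down. An interaction picks out the genes for which this programme runs with a different size or direction in the 2 genotypes, and leaves aside those that differ by the same factor with and without salt.

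Library totals ranged from 17173618 to 21651124 counts. One salt-treated line library, replicate 1, lay apart, with a correlation over genes of 0.931 and 0.935 with replicates 2 and 3, against 0.989 between these. Its median log2 distance from the mean of its fellows was 0.434, whereas the other 11 libraries lay 0.111 to 0.274 from theirs. The counts of calls are therefore given with all 12 libraries and without this one. Mesophyll markers were abundant, as the leaf label says, and 3 of 5 root markers were at 0 in all libraries. The summed FPKM of the 4 mesophyll markers was 526 to 2355 in the salt-treated line and 13731 to 14655 in the untreated line, against 4175 to 4460.1 in salt-treated wild type and 16723 to 20370.2 in untreated wild type. The root list summed to 27.5 to 54.2 in the salt-treated line and 2.44 to 4.70 in the untreated line, against 7.57 to 13.3 in salt-treated wild type and 1.08 to 3.19 in untreated wild type, nearly all of it from PYK10. In bulk leaf RNA, fewer cells of a type and less RNA per cell cannot be told apart, and the part of either in the results was not tested.

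With all 12 libraries, 1001 genes (5.88% of those tested) had an interaction at an adjusted p under 0.05 by edgeR's quasi-likelihood test with Benjamini-Hochberg adjustment, and 4756 had an unadjusted p under 0.05. Of the calls 498 were positive (2.92% of genes tested) and 503 negative (2.95%). The difference between the responses was at least 2-fold in 728 of them, and its median size was 1.27. The median interaction over all tested genes was -0.07. When replicate 1 of the salt-treated line was left out, the same test called 6270 genes (36.8%), 2345 positive (13.8%) and 3925 negative (23%). Of the 1001 genes, 1000 were among these with the same sign, which is 99.9% of the first list and 15.9% of the second. A further 5270 genes were called only without that library, and 5249 of them had the same sign in both fits. Both fits share all the other libraries, so this overlap of calls and signs is no independent check.

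The count was also sensitive to the other libraries. Leaving out 1 library at a time gave from 129 calls, without replicate 1 of salt-treated wild type, to the 6270 above. Without replicates 2 and 3 of the salt-treated line in turn there were 251 and 222, and without replicates 1, 2 and 3 of the untreated line 344, 348 and 708. Leaving out replicates 2 and 3 of salt-treated wild type gave 221 and 363, and replicates 1, 2 and 3 of untreated wild type 262, 267 and 204. A core of 121 genes was called with the same sign in all 12 of these fits, 59 positive and 62 negative. DESeq2 called 2531 genes, among them all 1001 with the same sign.

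**Figure D1:**
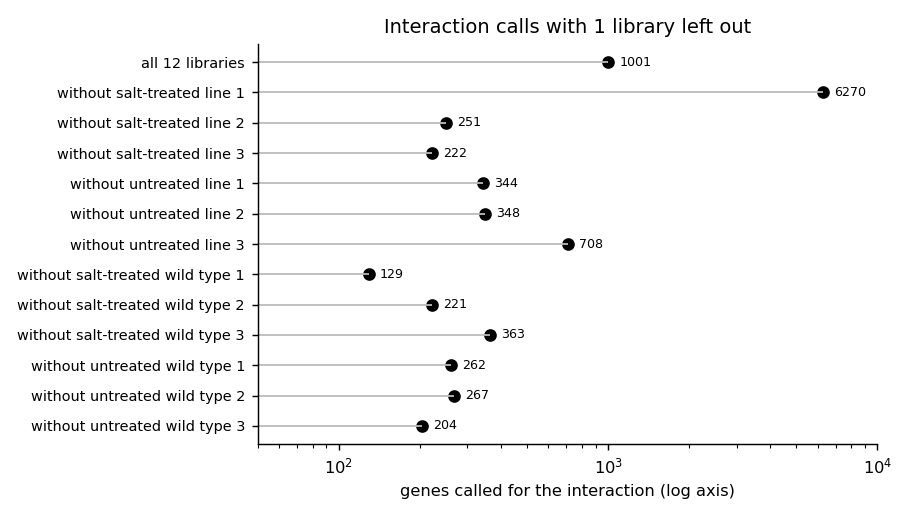
Number of genes called for the interaction (edgeR adjusted p under 0.05, log axis) with all 12 libraries and with each library left out, named at the left. The count is 1001 with all libraries, 6270 without replicate 1 of the salt-treated line, and between 129 and 708 without any other.

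Genes were sorted by which genotype responded, a response being an adjusted p under 0.05 for salt in that genotype. By that rule 11047 genes (64.8%) responded in the line and 9160 (53.8%) in wild type. Among the 1001 interaction genes 290 responded in the line only, 202 in wild type only, 297 in both with the larger change in the line, 121 in both with the larger change in wild type, and 91 in opposite directions. The responses are made from the same libraries as the interaction, so these class sizes are a description. Without replicate 1 of the salt-treated line the classes held 1691, 771, 2698, 545 and 507 genes, and 58 genes responded in neither. Of the 1000 genes shared by the fits, 848 stayed in their class.

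**Figure D2:**
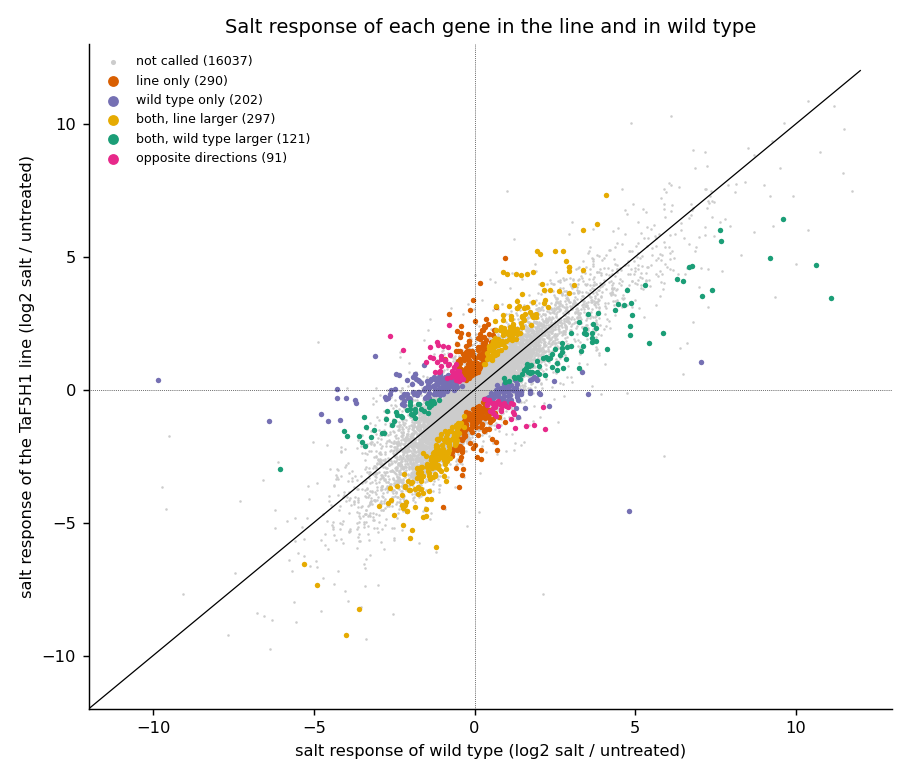
Salt response of each of the 17038 genes in the line (vertical axis) and in wild type (horizontal axis), both as log2 of salt over untreated, with all 12 libraries. Coloured points are the 1001 interaction genes by class and grey points the rest, and genes on the diagonal respond equally. The 91 genes with opposite responses lie at the upper left and lower right of the centre.

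Among the 290 genes that responded in the line only, 152 rose there and 138 fell. Their median response was 1.16 in size in the line and 0.23 in wild type. UGT84A2 (AT3G21560, chromosome 3, 7595680 to 7597607), which encodes the glucosyltransferase that activates sinapate, had 24.3, 28.6 and 29.1 FPKM in the salt-treated line and 8.65, 7.45 and 6.94 in the untreated line, against 7.48, 6.53 and 8.86 in salt-treated wild type and 8.58, 7.56 and 7.09 in untreated wild type. The 3 salt-treated line libraries lay above all 9 others, which overlapped. The interaction was 1.92 ± 0.20 (SE; edgeR adjusted p = 0.0031), called in 12 of the 12 fits with 1 library left out. This gene uses sinapate, the product of the branch that ferulate 5-hydroxylase opens, so its promoter is shown. The sequence is the 250 bases before the gene start, from the RefSeq TAIR10.1 genome at chr3:7595430-7595679, plus strand. Matches to the heat shock element GAANNTTC are in capitals, and 1 match to ACGTG, the site of ABA-responsive bZIP factors, is left unmarked. The heat shock element was in 8.55% of the 152 line-only promoters with a positive interaction, against 9.47% of all tested promoters.
UGT84A2: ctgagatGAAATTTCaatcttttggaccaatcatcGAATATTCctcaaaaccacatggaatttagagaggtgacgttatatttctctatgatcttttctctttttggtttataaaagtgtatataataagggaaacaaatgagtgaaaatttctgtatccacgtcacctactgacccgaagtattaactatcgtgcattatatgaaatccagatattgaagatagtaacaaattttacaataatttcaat

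GH3.6 (AT5G54510, chromosome 5, 22130964 to 22133688), whose enzyme conjugates auxin to amino acids, had 11.5, 48.6 and 39.4 FPKM in the salt-treated line and 1.98, 2.74 and 2.56 in the untreated line, against 4.24, 5.24 and 4.82 in salt-treated wild type and 3.91, 5.86 and 4.78 in untreated wild type. All salt-treated line libraries were above the other 9, and replicate 1 was well below its fellows. The interaction was 3.84 ± 0.56 (SE; edgeR adjusted p = 0.0088), and 4.24 (edgeR adjusted p = 6.2e-07) without that library. RABG2, a small GTPase gene of the Rab family, had 5.62, 5.05 and 5.63 FPKM in the salt-treated line and 1.81, 2.09 and 2.35 in the untreated line, against 6.26, 5.35 and 5.86 in salt-treated wild type and 7.50, 7.79 and 9.13 in untreated wild type. The line was below wild type without salt and overlapped it under salt, and the interaction was 1.93 ± 0.23 (SE; edgeR adjusted p = 0.0052). In the other direction, DTX36, a transporter gene of the multidrug and toxin extrusion family, had 1.09, 0.84 and 0.69 FPKM in the salt-treated line and 4.29, 4.12 and 6.67 in the untreated line, against 3.95, 4.25 and 5.34 in salt-treated wild type and 4.37, 3.83 and 5.40 in untreated wild type. Its 3 salt-treated line libraries were the lowest of the 12 (interaction -2.44 ± 0.35, edgeR adjusted p = 0.0087). NCER3, a neutral ceramidase gene, fell in the line as well, with 2.88, 2.92 and 3.74 FPKM in the salt-treated line and 9.86, 9.99 and 9.54 in the untreated line, against 5.23, 4.37 and 5.12 in salt-treated wild type and 5.99, 6.0 and 5.52 in untreated wild type. Here the untreated line was the highest group and the salt-treated line the lowest (interaction -1.31 ± 0.18, edgeR adjusted p = 0.0076). GH3.6, RABG2, DTX36 and NCER3 were each called in all 12 fits with 1 library left out.

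The 202 genes that responded in wild type only had a median response of 1.15 in size there and 0.25 in the line. Of these, 122 had a positive interaction, having fallen in wild type, and 80 a negative one, having risen there. AT5PTASE13 (AT1G05630, chromosome 1, 1682224 to 1687363), an inositol polyphosphate 5-phosphatase gene, had 3.93, 5.99 and 5.17 FPKM in the salt-treated line and 6.52, 5.15 and 8.65 in the untreated line, against 2.95, 3.01 and 3.92 in salt-treated wild type and 15.4, 17.7 and 15.4 in untreated wild type. Untreated wild type was above every other library, and the line's treated and untreated libraries overlapped (interaction 1.92 ± 0.28, edgeR adjusted p = 0.0087). KCS9, an elongase gene of very-long-chain fatty acid synthesis, had 29.8, 24.9 and 26.0 FPKM in the salt-treated line and 25.1, 26.1 and 32.4 in the untreated line, against 22.2, 23.5 and 27.5 in salt-treated wild type and 51.4, 54.6 and 53.3 in untreated wild type. Untreated wild type was again above all other libraries (interaction 1.14 ± 0.19, edgeR adjusted p = 0.012).

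RAP2-10, S1FA1 and PI4KG3, whose rise was called in wild type only, were higher in the untreated line than in untreated wild type. RAP2-10, an ERF transcription factor gene, had 59.9, 53.5 and 57.1 FPKM in the salt-treated line and 49.8, 57.4 and 53.4 in the untreated line, against 81.7, 74.2 and 82.2 in salt-treated wild type and 19.3, 20.9 and 31.4 in untreated wild type. Untreated wild type was the lowest group and salt-treated wild type the highest, with the line between them and its treatments overlapping (interaction -1.58 ± 0.24, edgeR adjusted p = 0.0091). S1FA1, encoding a small DNA-binding protein, had 12.99, 11.2 and 13.6 FPKM in the salt-treated line and 18.25, 22.4 and 14.8 in the untreated line, against 18.3, 18.8 and 21.6 in salt-treated wild type and 9.65, 9.17 and 8.31 in untreated wild type. Untreated wild type was the lowest group and the salt-treated line the next, and the untreated line overlapped salt-treated wild type (interaction -1.60 ± 0.24, edgeR adjusted p = 0.0091). PI4KG3, a gene of the phosphatidylinositol 4-kinase gamma family, had 27.1, 53.9 and 49.4 FPKM in the salt-treated line and 28.6, 20.6 and 25.7 in the untreated line, against 3.31, 23.2 and 7.74 in salt-treated wild type and 0.15, 0.08 and 0.06 in untreated wild type. It was near 0 in untreated wild type, and replicate 2 of salt-treated wild type was well above its fellows (interaction -5.98 ± 0.99, edgeR adjusted p = 0.012). In the line its response was 1.05 and not called. Replicates 2 and 3 of the salt-treated line were above the untreated line, and replicate 1 was within its range. AT5PTASE13, KCS9, RAP2-10, S1FA1 and PI4KG3 were each called in all 12 fits with 1 library left out. ORP1A, of an oxysterol-binding protein family, had 0.51, 3.16 and 3.23 FPKM in the salt-treated line and 4.07, 2.83 and 3.28 in the untreated line, against 0.24, 0.28 and 0.21 in salt-treated wild type and 4.17, 5.60 and 6.38 in untreated wild type. It fell in wild type, whereas in the line only replicate 1 was low under salt (interaction 3.96 ± 0.72, edgeR adjusted p = 0.016). It shares stretches of near-identical sequence with its neighbour ORP1B, which makes its count uncertain, and the call ended without replicate 1 of salt-treated wild type (edgeR adjusted p = 0.058). PER64, a class III peroxidase gene, had the lowest fitted value of the named genes (-9.38, edgeR adjusted p = 0.047). It rests on few counts, with 0.14, 0 and 0 FPKM in the salt-treated line and 0.08, 3.32 and 0.65 in the untreated line, against 0.51, 2.19 and 23.8 in salt-treated wild type and 0.22, 0.13 and 0.67 in untreated wild type. Replicate 3 of salt-treated wild type was far above the rest, and the gene was called in 1 of the 12 fits with 1 library left out, highest adjusted p 0.14.

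In 297 genes both genotypes responded and the line more. The median response was 2.48 in size in the line and 1.15 in wild type, and 132 rose while 165 fell. SWEET2 (AT3G14770, chromosome 3, 4957334 to 4959704), which encodes a sugar transporter of the vacuole membrane, had the smallest adjusted p of all genes tested. It had 19.4, 29.5 and 26.2 FPKM in the salt-treated line and 3.18, 3.66 and 3.27 in the untreated line, against 9.78, 9.62 and 9.90 in salt-treated wild type and 7.66, 6.99 and 6.71 in untreated wild type. The untreated line was below both wild type groups and the salt-treated line above them, with no overlap between any of the 4 groups. The responses were 3.15 ± 0.15 in the line and 0.66 ± 0.14 in wild type, and the interaction was 2.49 ± 0.20 (SE; edgeR adjusted p = 0.00087). AGP12 (AT3G13520, chromosome 3, 4408925 to 4409734), an arabinogalactan protein gene, had 372, 297 and 357 FPKM in the salt-treated line and 13.3, 29.1 and 20.2 in the untreated line, against 302, 268 and 350.2 in salt-treated wild type and 139, 125 and 123 in untreated wild type. Its genotypes overlapped under salt and were far apart without it, the line being lower (interaction 2.86 ± 0.33, edgeR adjusted p = 0.0038).

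**Figure D3:**
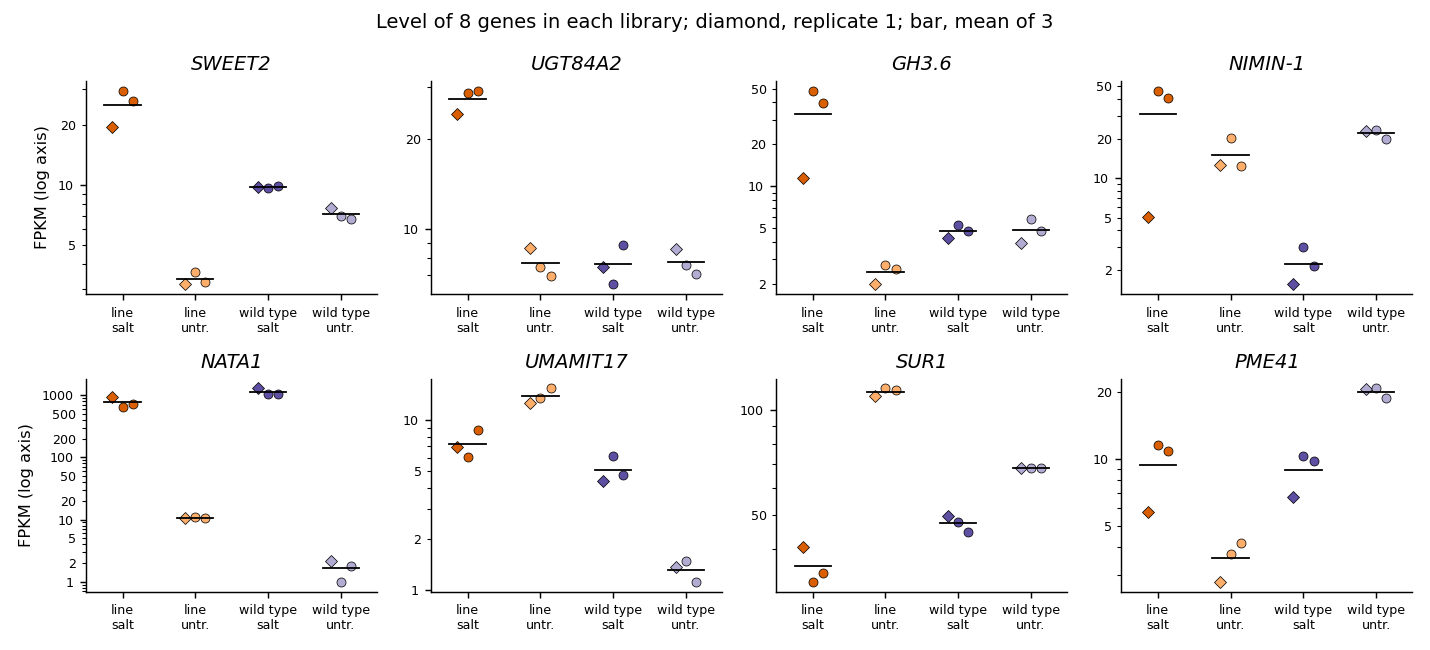
Deposited FPKM (log axis) of 8 genes in each of the 12 libraries, by group, with diamonds for replicate 1, circles for replicates 2 and 3 and bars for the group mean. SWEET2, UGT84A2 and GH3.6 are highest in the salt-treated line, replicate 1 of that group is low for NIMIN-1, and the gap between the genotypes is wider in the untreated groups for NATA1 and PME41.

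CYP85A2, GRXS7, GRXS3 and EXLA1, of the same class, also had a low untreated line. CYP85A2, a brassinosteroid oxidase gene, had 17.1, 25.4 and 26.7 FPKM in the salt-treated line and 3.70, 2.34 and 2.04 in the untreated line, against 16.6, 13.3 and 16.3 in salt-treated wild type and 6.53, 7.51 and 7.04 in untreated wild type. The line was the lower genotype without salt, and under salt all its libraries were above wild type (interaction 2.02 ± 0.30, edgeR adjusted p = 0.0092). GRXS7, a monothiol glutaredoxin gene, had 10.6, 8.91 and 10.3 FPKM in the salt-treated line and 0.63, 0.13 and 0.89 in the untreated line, against 22.3, 21.2 and 24.8 in salt-treated wild type and 14.2, 11.6 and 16.3 in untreated wild type. The line was lower in both treatments, and far more so without salt (interaction 3.52 ± 0.46, edgeR adjusted p = 0.0065). Its relative GRXS3, in the same cluster of chromosome 4, had 16.6, 22.3 and 27.6 FPKM in the salt-treated line and 0.71, 0.71 and 2.41 in the untreated line, against 26.3, 30.1 and 28.5 in salt-treated wild type and 16.7, 14.6 and 16.9 in untreated wild type. There the genotypes overlapped under salt (interaction 3.35 ± 0.47, edgeR adjusted p = 0.0076), and reads of such relatives may be divided in a way that is not known. EXLA1, an expansin-like gene, had 109.8, 191 and 227 FPKM in the salt-treated line and 15.6, 13.1 and 10.98 in the untreated line, against 139, 153 and 176 in salt-treated wild type and 41.1, 46.2 and 38.7 in untreated wild type. Its untreated line libraries were the lowest of the 12, and the salt-treated groups overlapped (interaction 1.89 ± 0.31, edgeR adjusted p = 0.011). CYP85A2, GRXS7, GRXS3 and EXLA1 were called in all 12 fits with 1 library left out, like SWEET2 and AGP12. CER1, whose enzyme makes wax alkanes, had 50.8, 15.0 and 11.5 FPKM in the salt-treated line and 0.52, 0.93 and 1.27 in the untreated line, against 72.1, 63.5 and 95.6 in salt-treated wild type and 23.0, 17.8 and 23.7 in untreated wild type, and replicate 1 of the salt-treated line was above its fellows. The line was lower than wild type in both treatments. Its interaction was 3.08 ± 0.71 (SE; edgeR adjusted p = 0.033) with 12 libraries and 2.07 (edgeR adjusted p = 0.0005) without that one, and it was called in 4 of the 12 fits with 1 library left out, highest adjusted p 0.088. The trihelix factor gene GT-3A had an interaction of 3.26 ± 0.72 (SE; edgeR adjusted p = 0.029), called in 3 of the 12 fits with 1 library left out, highest adjusted p 0.08.

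Among genes that fell further in the line, COL6 and ZFP8 had the smallest adjusted p under the naming rule. COL6, a CONSTANS-like zinc finger gene, had 33.9, 22.8 and 27.1 FPKM in the salt-treated line and 247, 232 and 247 in the untreated line, against 100.2, 92.4 and 86.2 in salt-treated wild type and 234, 242 and 259 in untreated wild type. Untreated groups overlapped between genotypes, and under salt the line was below wild type in every library (interaction -1.65 ± 0.24, edgeR adjusted p = 0.0082). ZFP8, a zinc finger gene of trichome development, had 1.33, 1.05 and 1.29 FPKM in the salt-treated line and 31.5, 30.9 and 29.1 in the untreated line, against 4.12, 3.6 and 4.87 in salt-treated wild type and 40.05, 34.0 and 39.4 in untreated wild type. Both genotypes fell and the line further, with no overlap between genotypes in either treatment (interaction -1.40 ± 0.21, edgeR adjusted p = 0.0089). Some of the lowest interactions belonged to genes near 0 under salt. ETC2, a small MYB gene that restrains trichome formation, had 0 counts in the salt-treated line, and its interaction was at most -2.07 when 3 counts were taken for that group (edgeR adjusted p = 0.022). PP2A5, a phloem lectin-like gene, had 0.77, 0.05 and 0.06 FPKM in the salt-treated line and 11.03, 13.9 and 15.2 in the untreated line, against 1.5, 3.0 and 2.41 in salt-treated wild type and 8.69, 12.7 and 9.46 in untreated wild type. The salt-treated line was the lowest group, with replicate 1 above its fellows, and the untreated groups overlapped (interaction -3.34, edgeR adjusted p = 0.033). Without that replicate the interaction was -5.58 (edgeR adjusted p = 1.3e-05). JAZ13, a jasmonate repressor gene, had an interaction of -3.17 (edgeR adjusted p = 0.041). ETC2, PP2A5 and JAZ13 were called in 5, 1 and 2 of the 12 fits with 1 library left out (highest adjusted p 0.065, 0.084 and 0.093), whereas COL6 and ZFP8 were called in all of them.

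In 121 genes both genotypes responded and wild type more, 42 with a positive and 79 with a negative interaction. NATA1 (AT2G39030, chromosome 2, 16298110 to 16299205), which encodes an ornithine acetyltransferase of the jasmonate-linked defence response, had 919, 634 and 725 FPKM in the salt-treated line and 10.6, 11.1 and 10.5 in the untreated line, against 1276, 1019 and 1041 in salt-treated wild type and 2.14, 0.99 and 1.82 in untreated wild type. Salt-treated wild type was above the salt-treated line, and the untreated line was above untreated wild type, with no overlap in either pair. Its responses were 6.41 ± 0.29 in the line and 9.59 ± 0.34 in wild type, the interaction being -3.18 ± 0.35 (SE; edgeR adjusted p = 0.0038). The anthocyanin regulator gene MYB90 had 63.2, 84.1 and 118 FPKM in the salt-treated line and 11.4, 12.7 and 5.14 in the untreated line, against 13.9, 13.1 and 10.4 in salt-treated wild type and 0, 0 and 0 in untreated wild type. The line was above wild type in both treatments. Because untreated wild type had 0 counts, the interaction is given as at most -4.71, with 3 counts taken for that group (edgeR adjusted p = 0.014). PSK5, a phytosulfokine precursor gene, had 71.6, 61.7 and 85.6 FPKM in the salt-treated line and 39.2, 49.8 and 42.0 in the untreated line, against 106, 90.04 and 88.8 in salt-treated wild type and 17.43, 17.7 and 20.0 in untreated wild type. The untreated line was above untreated wild type, and under salt the order was turned (interaction -1.56 ± 0.21, edgeR adjusted p = 0.0065).

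Among genes with a smaller fall in the line, SUC1, a sucrose and proton symporter gene, had 25.1, 34.5 and 36.2 FPKM in the salt-treated line and 81.5, 69.7 and 83.1 in the untreated line, against 14.02, 13.2 and 15.1 in salt-treated wild type and 70.8, 86.1 and 73.7 in untreated wild type. Untreated groups overlapped, and every salt-treated line library was above every salt-treated wild type one (interaction 1.21 ± 0.20, edgeR adjusted p = 0.011). BHLH60 had an interaction of 1.54 (edgeR adjusted p = 0.014), and the call ended without replicate 1 of salt-treated wild type (edgeR adjusted p = 0.052). NATA1, MYB90, PSK5 and SUC1 were called in all 12 fits. ASMT, for an acetylserotonin methyltransferase, had an interaction of -2.79 (edgeR adjusted p = 0.026), called in 5 of the 12 fits with 1 library left out, highest adjusted p 0.071.

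Responses in opposite directions were found for 91 genes, 50 that rose in the line and fell in wild type and 41 the other way round. NANA (AT3G12700, chromosome 3, 4036945 to 4039185), a chloroplast aspartic protease gene, had 3.22, 7.04 and 6.57 FPKM in the salt-treated line and 1.02, 1.61 and 1.08 in the untreated line, against 1.35, 1.07 and 1.04 in salt-treated wild type and 2.45, 2.63 and 1.85 in untreated wild type. Salt-treated line libraries were the highest of the 12, although replicate 1 was lower than its fellows (interaction 3.23 ± 0.43, edgeR adjusted p = 0.0065). PME41, a pectin methylesterase gene, had 5.77, 11.6 and 10.8 FPKM in the salt-treated line and 2.78, 3.71 and 4.17 in the untreated line, against 6.73, 10.3 and 9.80 in salt-treated wild type and 20.7, 20.8 and 18.7 in untreated wild type. The line was lowest without salt and the genotypes overlapped under salt, while untreated wild type was highest (interaction 2.63 ± 0.34, edgeR adjusted p = 0.0065). IAA19, an auxin-induced repressor gene of the AUX/IAA family, had 7.73, 7.18 and 7.93 FPKM in the salt-treated line and 3.68, 5.16 and 5.34 in the untreated line, against 9.26, 10.4 and 10.8 in salt-treated wild type and 16.3, 17.0 and 19.2 in untreated wild type. The line was below wild type in both treatments and the gap narrowed under salt (interaction 1.54 ± 0.23, edgeR adjusted p = 0.0089).

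UMAMIT17 (AT4G08300, chromosome 4, 5244865 to 5248394), of an amino acid transporter family, fell in the line and rose in wild type. It had 6.96, 6.10 and 8.69 FPKM in the salt-treated line and 12.6, 13.4 and 15.3 in the untreated line, against 4.40, 6.12 and 4.75 in salt-treated wild type and 1.37, 1.49 and 1.12 in untreated wild type. The untreated line was far above untreated wild type, and under salt the genotypes overlapped. The interaction was -2.81 ± 0.27 (SE; edgeR adjusted p = 0.0027). CM3, a chorismate mutase gene, had 7.48, 9.08 and 8.57 FPKM in the salt-treated line and 17.0, 23.2 and 14.9 in the untreated line, against 17.2, 16.2 and 16.3 in salt-treated wild type and 12.9, 12.4 and 12.8 in untreated wild type. Every untreated line library was above untreated wild type, and the salt-treated line was the lowest group (interaction -1.46 ± 0.22, edgeR adjusted p = 0.0091). NANA, PME41, IAA19, UMAMIT17 and CM3 were each called in all 12 fits with 1 library left out.

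The genes were also sorted by where the genotypes differed. Untreated line and untreated wild type differed in 2371 genes (13.9%), and the salt-treated groups in 5888 (34.6%). Of the 1001 interaction genes, 564 differed under salt only and 271 without salt only. In 138 both differences were called, and in 98 of these they had opposite signs, so that the genotypes changed order, as for SWEET2. Neither difference was called in 28. The untreated-only group held 129 positive and 142 negative interactions. In it the untreated line was already displaced, and under salt the genotypes were not told apart, as for AGP12, PME41 and UMAMIT17. In the core of 121 genes, differences of opposite sign were found for 23 genes with a positive and 23 with a negative interaction, a difference under salt only for 16 and 19, without salt only for 17 and 14, and of the same sign in both for 3 and 6.

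Gene lists are described below with 2 values, the first from all 12 libraries and the second without replicate 1 of the salt-treated line, beside the same over all tested genes. Members and lists were chosen with earlier results of these data known, so a share above that of all genes is a description. Salicylate genes of systemic defence had a positive median interaction. Salicylate is the hormone of resistance to biotrophic pathogens, and the 24 tested members cover its synthesis, its receptors and their targets. Of them 5 were called, all positive, and 14 without replicate 1 of the salt-treated line, again all positive. These are 20.8% and 58.3% of the list, against 5.88% and 36.8% of all genes. The median interactions were 0.84 and 1.11, against -0.07 and -0.11 over all genes, with a median response of 1.10 in the line and -0.60 in wild type. SARD1 (AT1G73805, chromosome 1, 27744790 to 27749248), a factor that switches on salicylate synthesis genes, had 23.9, 85.2 and 67.6 FPKM in the salt-treated line and 37.7, 31.6 and 21.4 in the untreated line, against 7.66, 15.0 and 8.13 in salt-treated wild type and 30.0, 29.3 and 26.8 in untreated wild type. Replicates 2 and 3 of the salt-treated line were above all other libraries, and replicate 1 was within the range of the untreated line. The interaction was 2.49 ± 0.56 (SE; edgeR adjusted p = 0.031), and 2.85 (edgeR adjusted p = 7.1e-05) without replicate 1. The gene is shown with its promoter, the 250 bases before the gene start at chr1:27749249-27749498, minus strand of TAIR10.1, because W-boxes are the sites that WRKY factors bind. Matches to the W-box core TTGAC on either strand are in capitals.
SARD1: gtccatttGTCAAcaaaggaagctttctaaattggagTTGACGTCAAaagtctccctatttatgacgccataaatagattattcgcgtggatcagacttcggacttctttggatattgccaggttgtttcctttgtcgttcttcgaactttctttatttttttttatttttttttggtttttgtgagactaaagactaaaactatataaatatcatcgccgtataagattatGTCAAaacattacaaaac

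NIMIN-1, which encodes a partner of the salicylate receptor NPR1, had 5.05, 46.4 and 40.9 FPKM in the salt-treated line and 12.6, 20.3 and 12.4 in the untreated line, against 1.55, 2.96 and 2.15 in salt-treated wild type and 23.0, 23.5 and 19.9 in untreated wild type. Wild type was low under salt in all 3 libraries, whereas in the line replicates 2 and 3 were above every untreated library and replicate 1 was below them. The interaction was 4.38 ± 0.83 (SE; edgeR adjusted p = 0.02), and it was called in all fits but that without replicate 1 of salt-treated wild type (edgeR adjusted p = 0.065). SARD4, a gene of pipecolate synthesis, had 33.0, 86.3 and 83.1 FPKM in the salt-treated line and 34.8, 28.9 and 24.8 in the untreated line, against 15.6, 22.5 and 18.7 in salt-treated wild type and 32.1, 27.9 and 32.3 in untreated wild type, and its interaction was 1.94 ± 0.41 (SE; edgeR adjusted p = 0.025). Outside the list, LURP1, a pathogen-induced gene, and LLP, a lectin-like gene, had interactions of 3.07 (edgeR adjusted p = 0.03) and 3.20 (edgeR adjusted p = 0.022). WRKY54, a WRKY factor gene of the list, had 10.2, 36.8 and 34.8 FPKM in the salt-treated line and 49.9, 45.4 and 29.1 in the untreated line, against 4.24, 5.22 and 2.69 in salt-treated wild type and 31.6, 34.0 and 28.8 in untreated wild type. It fell in wild type in every library, and in the line replicate 1 alone was low (interaction 2.39 ± 0.56, edgeR adjusted p = 0.035). SARD1, SARD4, LURP1, LLP and WRKY54 were called in 2, 3, 1, 7 and 1 of the 12 fits with 1 library left out, the highest adjusted p being 0.088. Over the whole list, the median level of replicate 1 in the salt-treated line was -0.01 from the sum of the separate differences, against 1.31 and 1.22 for replicates 2 and 3.

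Jasmonate synthesis genes had a negative median interaction. Jasmonate is the wound hormone, made from plastid fatty acids by lipoxygenase, allene oxide cyclase and a peroxisomal reductase. Of 12 tested genes 5 were called, all negative, and 8 without replicate 1 of the salt-treated line, all negative. The calls were 41.7% and 66.7% of the list, against 5.88% and 36.8% of all genes. The median response was -0.20 in the line and 0.77 in wild type, and the median interactions were -1.11 and -1.29, against -0.07 and -0.11 over all genes. LOX4 (AT1G72520, chromosome 1, 27308513 to 27312756), a lipoxygenase gene, had 45.1, 27.8 and 32.1 FPKM in the salt-treated line and 87.5, 76.0 and 106 in the untreated line, against 90.3, 114 and 118 in salt-treated wild type and 69.0, 79.3 and 103 in untreated wild type. The salt-treated line was the lowest group without overlap, and the other groups overlapped in part (interaction -1.65 ± 0.32, edgeR adjusted p = 0.021). OPR3, the reductase gene, had 287, 237 and 251 FPKM in the salt-treated line and 325, 352 and 409 in the untreated line, against 523, 518 and 509 in salt-treated wild type and 252, 223 and 389.6 in untreated wild type. Salt-treated wild type was above all other libraries (interaction -1.26 ± 0.30, edgeR adjusted p = 0.034). AOC1, an allene oxide cyclase gene, had an interaction of -1.51 (edgeR adjusted p = 0.043). LOX4, OPR3 and AOC1 were called in 8, 2 and 2 of the 12 fits, the highest adjusted p being 0.11. Relative to the sum of the separate differences, the list stood at -0.68 in replicate 1 of the salt-treated line and at -1.32 and -1.31 in replicates 2 and 3. Among 15 repressors and outputs of jasmonate signalling 1 was called, positive, TAT3, a tyrosine aminotransferase gene (2.04, edgeR adjusted p = 0.045, called in 1 of the 12 fits with 1 library left out, highest adjusted p 0.11). Without replicate 1 of the salt-treated line 6 were called, 1 positive and 5 negative. The shares were 6.67% and 40% of the list, against 5.88% and 36.8% of all genes, and the median interactions -0.60 and -0.58, against -0.07 and -0.11 over all genes. The repressor gene JAZ13, described above, is outside this list, and its call was negative (-3.17, edgeR adjusted p = 0.041, called in 2 of the 12 fits with 1 library left out).

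Glucosinolate genes, which make the sulphur-rich defence compounds of the cabbage family, had a negative median interaction too. Of 20 tested genes 4 were called, all negative, and 19 without replicate 1 of the salt-treated line, all negative. The calls made up 20% and 95% of the list, against 5.88% and 36.8% of all genes, and 2.95% and 23% of all genes were called negative. The median interactions were -1.37 and -2.06, against -0.07 and -0.11 over all genes. SUR1 (AT2G20610, chromosome 2, 8877887 to 8880440), for the carbon-sulphur lyase of the core pathway, had 40.6, 32.1 and 34.2 FPKM in the salt-treated line and 109.9, 116 and 114 in the untreated line, against 49.6, 47.7 and 44.8 in salt-treated wild type and 68.2, 68.4 and 68.5 in untreated wild type. The untreated line was above untreated wild type and the salt-treated line below salt-treated wild type, with no overlap between the 4 groups. The interaction was -1.07 ± 0.17 (SE; edgeR adjusted p = 0.011), called in 12 of the 12 fits with 1 library left out. SOT17, a sulphotransferase gene of the last core step, had 22.1, 14.4 and 15.4 FPKM in the salt-treated line and 54.7, 51.9 and 59.2 in the untreated line, against 22.5, 19.5 and 20.8 in salt-treated wild type and 24.0, 30.3 and 21.4 in untreated wild type. The untreated line was above all other libraries (interaction -1.34 ± 0.26, edgeR adjusted p = 0.021). CYP79B3, which starts indole glucosinolates from tryptophan, had an interaction of -1.59 (edgeR adjusted p = 0.036). SOT17 and CYP79B3 were called in 8 and 1 of the 12 fits, the highest adjusted p being 0.092.

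Glutathione S-transferases, which conjugate electrophiles to glutathione, had calls in both directions. Of 27 tested genes 1 was called positive and 3 negative, and 5 and 6 without replicate 1 of the salt-treated line. The calls amount to 14.8% and 40.7% of the list, against 5.88% and 36.8% of all genes, with median interactions of -0.43 and -0.43, against -0.07 and -0.11 over all genes. GSTU19 had 1196, 3178 and 2867 FPKM in the salt-treated line and 324, 320.2 and 321 in the untreated line, against 689, 802 and 623 in salt-treated wild type and 345, 271 and 317 in untreated wild type. The salt-treated line was above all other libraries, with replicate 1 well below its fellows (interaction 1.78 ± 0.40, edgeR adjusted p = 0.032). GSTF9 had 709.6, 427 and 439.9 FPKM in the salt-treated line and 1033, 1117 and 973 in the untreated line, against 968, 801 and 763 in salt-treated wild type and 616, 524 and 512 in untreated wild type. It fell in the line and rose in wild type (interaction -1.53 ± 0.31, edgeR adjusted p = 0.023), and GSTF10 had an interaction of -1.26 (edgeR adjusted p = 0.029). GSTU19, GSTF9 and GSTF10 were called in 1, 4 and 3 of the 12 fits, the highest adjusted p being 0.088.

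Photosynthesis and chlorophyll genes gave the plainest contrast between the fits. Of 26 tested genes for light harvesting, the photosystems and Rubisco, 25 fell in the line and 20 in wild type, with medians of -2.04 and -1.32. For the interaction 0 were called by edgeR with 12 libraries, 5 had an unadjusted p under 0.05 and DESeq2 called 3, all negative, against 22 by edgeR without replicate 1 of the salt-treated line, all negative. That is 0% and 84.6% of the list, against 5.88% and 36.8% of all genes, and the median interactions were -0.91 and -1.76, against -0.07 and -0.11 over all genes. LHCB1.1, the member with the smallest adjusted p, had 6.86, 2.0 and 2.74 FPKM in the salt-treated line and 49.1, 62.1 and 58.6 in the untreated line, against 10.4, 11.8 and 9.76 in salt-treated wild type and 51.4, 54.5 and 61.2 in untreated wild type. Its interaction was -1.43 ± 0.47 (SE; edgeR adjusted p = 0.088), and -2.17 (edgeR adjusted p = 1.3e-05) without replicate 1. Reads of this gene may be shared with near-identical copies next to it. Of 12 chlorophyll synthesis genes edgeR called 0 with 12 libraries, with 2 at an unadjusted p under 0.05 and 1 called by DESeq2, and it called 11 without replicate 1, all negative. Here the shares were 0% and 91.7% of the list, against 5.88% and 36.8% of all genes, and the median interactions -0.89 and -1.82, against -0.07 and -0.11 over all genes. CHLM, a methyltransferase gene of that pathway, had 15.9, 7.93 and 5.85 FPKM in the salt-treated line and 97.5, 121 and 105 in the untreated line, against 39.9, 41.5 and 41.5 in salt-treated wild type and 189.8, 165 and 186 in untreated wild type (interaction -1.24 ± 0.41, edgeR adjusted p = 0.086), and the interaction was -1.79 (edgeR adjusted p = 1.9e-05) without replicate 1. Replicates 2 and 3 of the salt-treated line were low in both lists, and replicate 1 lay nearer to salt-treated wild type. Relative to the sum of the separate differences, the photosynthesis list was at -0.11 in replicate 1 and at -1.83 and -1.67 in replicates 2 and 3, and the chlorophyll synthesis list at 0.04, -1.83 and -1.72. The mesophyll marker sums given above moved with these genes, and edgeR called 0 of the 4 markers with 12 libraries and 4 without replicate 1. Among the markers RBCS1A is a Rubisco gene and LHCB3 a light-harvesting gene, so the sums are no separate measure of mesophyll. The part of mesophyll content in the result was not tested.

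**Figure D4:**
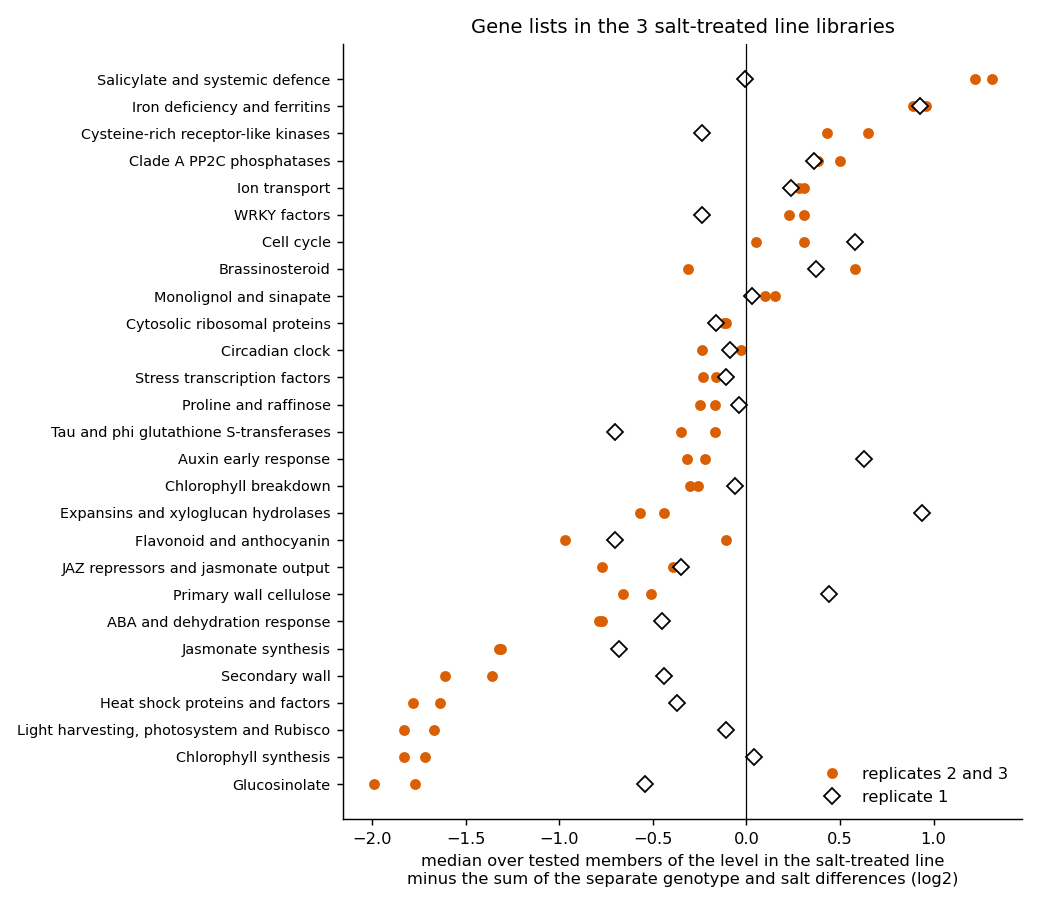
Median over the tested members of 27 gene lists (rows) of the level in each salt-treated line library minus the sum of the separate genotype and salt differences, on the log2 scale, so that 0 means no interaction. Replicate 1 (diamonds) is near 0 for the salicylate (-0.01) and chlorophyll synthesis (0.04) lists, where replicates 2 and 3 (circles) are far from it, and beside its fellows for the iron list (0.93, against 0.96 and 0.89).

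Genes of the ABA and dehydration response rose in both genotypes, 14 of 14 in each, with a median of 4.65 in the line and 6.03 in wild type. With 12 libraries edgeR called 0 of the 14 for the interaction, 8 had an unadjusted p under 0.05 and DESeq2 called 6, all negative. By edgeR 11 were called negative without replicate 1 of the salt-treated line. The called shares were 0% and 78.6% of the list, against 5.88% and 36.8% of all genes, with median interactions of -0.64 and -0.79, against -0.07 and -0.11 over all genes. KIN1, a cold- and ABA-induced gene, had 2001, 1055 and 1148 FPKM in the salt-treated line and 2.45, 3.74 and 4.28 in the untreated line, against 2261, 2292 and 2178 in salt-treated wild type and 1.29, 0.87 and 2.29 in untreated wild type. Its interaction was -1.83 ± 0.50 (SE; edgeR adjusted p = 0.053), and -2.21 (edgeR adjusted p = 0.00035) without replicate 1. LTI65, also known as RD29B, had an interaction of -0.60 (edgeR adjusted p = 0.58) with 12 libraries and of -1.33 (edgeR adjusted p = 0.01) without replicate 1. NCED3, for the rate-limiting dioxygenase of ABA synthesis, had 103, 104 and 105 FPKM in the salt-treated line and 5.28, 9.21 and 9.37 in the untreated line, against 68.4, 85.4 and 62.2 in salt-treated wild type and 4.2, 9.04 and 5.06 in untreated wild type. The line was above wild type under salt in every library, and the untreated groups overlapped. The interaction was 0.20 ± 0.39 (SE; edgeR adjusted p = 0.77). All 7 clade A PP2C phosphatase genes, which restrain ABA signalling, rose in both genotypes. For the interaction edgeR called 0 of them, 2 had an unadjusted p under 0.05 and DESeq2 called 2, both positive. Without replicate 1 of the salt-treated line edgeR called 1, positive. This gives 0% and 14.3% of the list, against 5.88% and 36.8% of all genes, and median interactions of 0.39 and 0.42, against -0.07 and -0.11 over all genes. ABI2 had 89.1, 74.5 and 68.2 FPKM in the salt-treated line and 11.7, 10.5 and 10.8 in the untreated line, against 42.6, 44.9 and 51.0 in salt-treated wild type and 11.3, 8.91 and 10.14 in untreated wild type. Its salt-treated line libraries were above all others, and the interaction was 0.70 ± 0.20 (SE; edgeR adjusted p = 0.064), and 0.55 (edgeR adjusted p = 0.02) without replicate 1.

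Among 25 stress transcription factors the only call with 12 libraries was ABI5 (AT2G36270, chromosome 2, 15204659 to 15207636), a bZIP factor of ABA signalling, with 4.11, 4.47 and 5.41 FPKM in the salt-treated line and 0.52, 0.63 and 0.66 in the untreated line, against 3.66, 4.26 and 3.83 in salt-treated wild type and 0.15, 0.17 and 0.21 in untreated wild type. The salt-treated groups overlapped, and the untreated line was above untreated wild type. The interaction was -1.44 ± 0.30 (SE; edgeR adjusted p = 0.025), called in 4 of the 12 fits with 1 library left out, highest adjusted p 0.066. Without replicate 1 of the salt-treated line 4 of the list were called, 2 positive and 2 negative, so that the shares were 4% and 16% of the list, against 5.88% and 36.8% of all genes. The list had median interactions of -0.08 and -0.17, against -0.07 and -0.11 over all genes. ABI5 belongs to the 79 genes with a larger rise in wild type and a negative interaction. Of those promoters 33 (41.8%) held the ABRE core ACGTG, the site of ABA-responsive bZIP factors, against 23.7% of all tested promoters, without a test. All 79 genes rose under salt in both genotypes, and the share was 29.5% in the 132 genes with a larger rise in the line. The promoter of ABI5, the 250 bases before the gene start at chr2:15207637-15207886, minus strand of TAIR10.1, is shown with ACGTG on either strand in capitals. The stretches of 6 capitals are G-boxes (CACGTG), in which the matches of both strands overlap.
ABI5: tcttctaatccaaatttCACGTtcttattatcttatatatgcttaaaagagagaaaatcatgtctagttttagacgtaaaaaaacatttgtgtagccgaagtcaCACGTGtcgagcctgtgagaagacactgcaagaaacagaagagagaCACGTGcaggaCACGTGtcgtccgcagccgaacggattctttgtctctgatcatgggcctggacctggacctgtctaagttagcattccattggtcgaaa

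Calls among heat shock and anthocyanin genes were negative as well. Of 10 heat shock genes 2 were called, both negative, and 7 negative without replicate 1 of the salt-treated line, with median responses of 1.98 in the line and 3.47 in wild type. As shares these are 20% and 70% of the list, against 5.88% and 36.8% of all genes, and the median interactions were -1.02 and -1.77, against -0.07 and -0.11 over all genes. HSP17.4A, a small chaperone gene, had 6.75, 3.45 and 3.73 FPKM in the salt-treated line and 2.05, 2.03 and 0.87 in the untreated line, against 5.53, 7.57 and 5.78 in salt-treated wild type and 0.21, 0.07 and 0.19 in untreated wild type. The salt-treated groups overlapped, and the untreated line was above untreated wild type (interaction -3.68 ± 0.68, edgeR adjusted p = 0.017). HSP17.7 had an interaction of -3.73 (edgeR adjusted p = 0.022), with 1 of 3 untreated wild type libraries at 0. The call of HSP17.4A ended without replicates 2 and 3 of untreated wild type in turn (edgeR adjusted p = 0.051 and 0.05), and HSP17.7 was called in 6 of the 12 fits with 1 library left out, highest adjusted p 0.067. Of 10 flavonoid and anthocyanin genes MYB75 and MYB90 were called, both negative, and 3 without replicate 1 of the salt-treated line, all negative. They make 20% and 30% of the list, against 5.88% and 36.8% of all genes, with median interactions of -0.57 and -0.57, against -0.07 and -0.11 over all genes. MYB75 had 122, 35.0 and 41.5 FPKM in the salt-treated line and 13.3, 15.6 and 16.3 in the untreated line, against 50.2, 39.1 and 34.9 in salt-treated wild type and 1.59, 1.44 and 1.89 in untreated wild type. Replicate 1 of the salt-treated line was far above its fellows, which overlapped salt-treated wild type (interaction -2.44 ± 0.60, edgeR adjusted p = 0.04, called in 1 of the 12 fits with 1 library left out, highest adjusted p 0.098).

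The phenylpropanoid pathway, in which TaF5H1 acts, held 3 calls among 22 tested monolignol and sinapate genes. UGT84A2 and HST were positive and PAL3 negative, and 11 were called without replicate 1 of the salt-treated line, 7 positive and 4 negative. These counts are 13.6% and 50% of the list, against 5.88% and 36.8% of all genes, and the median interactions were 0.08 and 0.16, against -0.07 and -0.11 over all genes. HST (HCT), for the hydroxycinnamoyl transferase of the shikimate shunt, had 46.1, 59.4 and 58.0 FPKM in the salt-treated line and 45.3, 48.6 and 49.5 in the untreated line, against 40.4, 47.4 and 49.1 in salt-treated wild type and 74.98, 71.2 and 70.8 in untreated wild type. It rose in the line and fell in wild type (interaction 0.91 ± 0.17, edgeR adjusted p = 0.016), and the call ended without replicate 1 of salt-treated wild type (edgeR adjusted p = 0.059). PAL3, one of the phenylalanine ammonia-lyase genes, had 0.58, 0.28 and 0.21 FPKM in the salt-treated line and 8.12, 7.88 and 8.0 in the untreated line, against 1.11, 0.87 and 1.03 in salt-treated wild type and 5.95, 5.33 and 3.71 in untreated wild type (interaction -2.11 ± 0.42, edgeR adjusted p = 0.022, called in 7 of the 12 fits with 1 library left out, highest adjusted p 0.065). The Arabidopsis ferulate 5-hydroxylase gene FAH1, named CYP84A1 in the table, had 12.5, 31.8 and 33.3 FPKM in the salt-treated line and 23.1, 23.3 and 17.56 in the untreated line, against 9.15, 8.55 and 8.87 in salt-treated wild type and 12.6, 13.6 and 13.6 in untreated wild type. Replicates 2 and 3 of the salt-treated line were above all other libraries, and replicate 1 was within the wild type range. Its interaction was 0.91 ± 0.38 (SE; edgeR adjusted p = 0.15) with 12 libraries and 1.23 (edgeR adjusted p = 0.00012) without replicate 1. CYP84A4, its relative, had -0.63 (edgeR adjusted p = 0.57) with 12 libraries and -1.58 (edgeR adjusted p = 0.013) without replicate 1, and OMT1, for the methyltransferase that follows, 0.25 (edgeR adjusted p = 0.45) with 12 libraries.

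Ion transport genes held 3 calls among 18, 2 positive and 1 negative, and 5 without replicate 1 of the salt-treated line, 3 positive and 2 negative. The calls were thus 16.7% and 27.8% of the list, against 5.88% and 36.8% of all genes. The median interactions were 0.29 and 0.27, against -0.07 and -0.11 over all genes. HA2, a plasma membrane proton pump gene, had 30.4, 46.9 and 51.8 FPKM in the salt-treated line and 38.1, 30.4 and 38.1 in the untreated line, against 28.3, 28.6 and 33.2 in salt-treated wild type and 55.3, 56.3 and 51.6 in untreated wild type. It rose in the line and fell in wild type (interaction 1.19 ± 0.24, edgeR adjusted p = 0.023). NHX4, a cation antiporter gene, had an interaction of 1.91 (edgeR adjusted p = 0.035), and AKT1, an inward potassium channel gene, of -1.33 (edgeR adjusted p = 0.041). HA2, NHX4 and AKT1 were called in 4, 3 and 2 of the 12 fits, the highest adjusted p being 0.11. The best-known salt tolerance genes were not called. SOS1, named NHX7 in the table and encoding the sodium exporter of the plasma membrane, had 4.51, 4.79 and 5.19 FPKM in the salt-treated line and 5.80, 3.52 and 4.30 in the untreated line, against 4.79, 4.80 and 5.35 in salt-treated wild type and 4.78, 5.19 and 4.80 in untreated wild type. The 4 groups overlapped, and the interaction was 0.13 ± 0.23 (SE; edgeR adjusted p = 0.74). The vacuolar antiporter gene NHX1 had 260.0, 234 and 233 FPKM in the salt-treated line and 58.2, 43.4 and 61.4 in the untreated line, against 222, 222 and 206 in salt-treated wild type and 53.9, 61.3 and 63.0 in untreated wild type. It rose in both genotypes, and the interaction was 0.35 ± 0.22 (SE; edgeR adjusted p = 0.33). P5CSA, a proline synthesis gene, had 215, 69.5 and 81.9 FPKM in the salt-treated line and 35.5, 27.1 and 53.2 in the untreated line, against 234, 189 and 230.3 in salt-treated wild type and 73.0, 103 and 92.0 in untreated wild type. Replicate 1 of the salt-treated line was with salt-treated wild type and its fellows were lower, and the interaction was 0.46 (edgeR adjusted p = 0.62) with 12 libraries and -0.28 (edgeR adjusted p = 0.52) without it.

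For iron genes replicate 1 of the salt-treated line sat with its fellows in the list median. Of 10 tested iron deficiency and ferritin genes 4 were called, all positive, and 7 without that replicate, 5 positive and 2 negative. They are 40% and 70% of the list, against 5.88% and 36.8% of all genes, and the median interactions were 0.93 and 0.89, against -0.07 and -0.11 over all genes. FER3, a ferritin gene, had 174, 202 and 219 FPKM in the salt-treated line and 30.7, 33.8 and 36.5 in the untreated line, against 88.2, 93.8 and 110.3 in salt-treated wild type and 35.1, 31.1 and 29.7 in untreated wild type. The untreated groups overlapped, and every salt-treated line library was above salt-treated wild type (interaction 1.01 ± 0.18, edgeR adjusted p = 0.015). FRO3, a ferric reductase gene, had 5.29, 12.4 and 9.81 FPKM in the salt-treated line and 6.19, 4.33 and 5.49 in the untreated line, against 3.79, 3.91 and 3.40 in salt-treated wild type and 6.75, 11.2 and 10.8 in untreated wild type. It rose in the line and fell in wild type (interaction 2.21 ± 0.39, edgeR adjusted p = 0.015), but replicate 1 of the salt-treated line was within the range of the untreated line. AT2G30766 fell in both genotypes and less in the line (interaction 3.06 ± 0.54, edgeR adjusted p = 0.015). In the salt-treated line it had 0.35 FPKM in replicate 1, below the 1.11 and 1.16 of replicates 2 and 3. All 3 lost the call without replicate 1 of salt-treated wild type, with edgeR adjusted p = 0.057, 0.053 and 0.05.

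In the large families of defence regulators the calls went both ways. Of 44 tested WRKY genes 2 were positive and 2 negative, and without replicate 1 of the salt-treated line 13 and 4. At 9.09% and 38.6% of the list, against 5.88% and 36.8% of all genes, the called shares were near the background, and the median interactions were 0.18 and 0.28, against -0.07 and -0.11 over all genes. WRKY45 had 16.7, 31.3 and 30.1 FPKM in the salt-treated line and 7.76, 12.5 and 6.65 in the untreated line, against 24.2, 22.1 and 18.4 in salt-treated wild type and 2.08, 2.01 and 1.79 in untreated wild type and rose in both genotypes (interaction -1.87 ± 0.38, edgeR adjusted p = 0.022), as did WRKY69 (-1.10, edgeR adjusted p = 0.029). Of 39 cysteine-rich receptor-like kinase genes 1 was positive and 3 negative, and without that library 12 and 5. This was 10.3% and 43.6% of the list, against 5.88% and 36.8% of all genes, again near the background, with median interactions of 0.21 and 0.49, against -0.07 and -0.11 over all genes. CRK34, CRK10 and CRK15 had interactions of -1.69 (edgeR adjusted p = 0.022), -1.24 (edgeR adjusted p = 0.033) and 1.93 (edgeR adjusted p = 0.024). WRKY45, WRKY69, CRK34, CRK10 and CRK15 were called in 7, 4, 5, 2 and 2 of the 12 fits, the highest adjusted p being 0.086.

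With 12 libraries the cell wall lists held 1 call, and they do not cover all wall genes. AGP12 (2.86, edgeR adjusted p = 0.0038) and PME41 (2.63, edgeR adjusted p = 0.0065), described above, were called and are outside these lists. Of 21 expansin and xyloglucan hydrolase genes 1 was called, EXLA1, and 9 without replicate 1 of the salt-treated line, 4 positive and 5 negative. The shares came to 4.76% and 42.9% of the list, against 5.88% and 36.8% of all genes, and the median interactions to -0.18 and -0.99, against -0.07 and -0.11 over all genes. Of 12 secondary wall genes edgeR called 0 with 12 libraries, with 5 at an unadjusted p under 0.05 and 3 called by DESeq2, all negative, and it called 5 without that replicate, all negative. The list had 0% and 41.7% called, against 5.88% and 36.8% of all genes, and the lowest median interactions of the 27 lists, -1.82 and -2.31, against -0.07 and -0.11 over all genes. Replicates lay apart in this list. Relative to untreated wild type its median was 0.05, 0.59 and 2.15 in salt-treated wild type and -0.99, 0.42 and -0.73 in the untreated line. In the salt-treated line it was -0.14, -1.33 and -0.87. Of 11 primary wall cellulose genes edgeR called 0, with 0 at an unadjusted p under 0.05 and 0 called by DESeq2, and 5 without replicate 1 of the salt-treated line, all negative. That makes 0% and 45.5% of the list, against 5.88% and 36.8% of all genes, with median interactions of -0.23 and -0.62, against -0.07 and -0.11 over all genes. CESA4, a cellulose synthase gene of the secondary wall, had 0.79, 0.43 and 0.67 FPKM in the salt-treated line and 1.37, 3.91 and 1.40 in the untreated line, against 1.79, 2.03 and 6.59 in salt-treated wild type and 2.48, 2.58 and 1.92 in untreated wild type. Replicate 3 of salt-treated wild type and replicate 2 of the untreated line were above the rest, and the interaction was -2.32 ± 0.74 (SE; edgeR adjusted p = 0.08), and -2.55 (edgeR adjusted p = 0.022) without replicate 1 of the salt-treated line. The summed level of the 3 xylem markers was 0.78 to 2.83 FPKM in the salt-treated line and 0.62 to 2.98 in the untreated line, against 3.70 to 11.5 in salt-treated wild type and 2.00 to 5.20 in untreated wild type, and their part in the result was not tested. XXT1, a xyloglucan xylosyltransferase gene, had 34.8, 31.2 and 33.1 FPKM in the salt-treated line and 12.3, 17.37 and 16.7 in the untreated line, against 38.1, 44.7 and 44.5 in salt-treated wild type and 21.4, 37.2 and 23.2 in untreated wild type (interaction 0.52 ± 0.28, edgeR adjusted p = 0.24).

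Replicate 1 of the salt-treated line was next placed gene by gene against the other 11 libraries. For each of the 6270 genes called without it, its position was scaled so that 0 is the sum of the separate genotype and salt differences and 1 is the mean of replicates 2 and 3. Its median position was 0.283 (quartiles 0.0375 and 0.558), and it lay on the same side as its fellows in 78% of genes. The genes were called from its fellows, so their own positions are no comparison. The calls and the 0 point also share the untreated and wild type libraries. An error in that point moves replicate 1 and its fellows to the same side. The 78% and the medians by class below are therefore a description. By class the median was 0.491 in genes with a larger response in wild type, 0.41 in the wild-type-only class, 0.347 in the line-only class, 0.345 in the opposite class and 0.181 in genes with a larger response in the line. By where the gap lay, it was 0.777 in the 670 genes that differed without salt only and 0.257 in the 3725 that differed under salt only. In the 1068 genes with differences of the same sign in both treatments it was -0.0491, and 43.6% of these lay above 0. It was 0.479 in the 628 with opposite signs and 0.615 in the 179 with neither difference called. The position and the sorting share the untreated libraries, so these values by gap are a description.

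**Figure D5:**
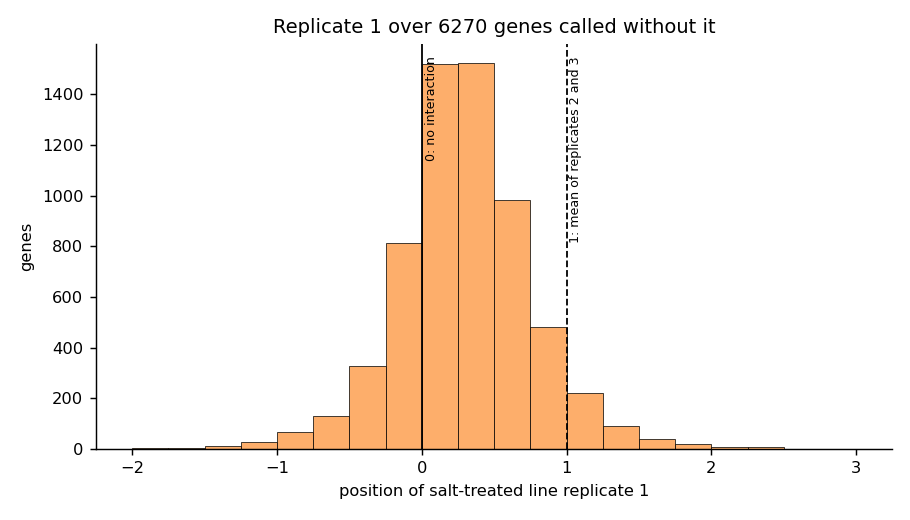
Position of replicate 1 of the salt-treated line for the 6270 genes called for the interaction without it, in bins of 0.25, with the number of genes on the vertical axis and any genes beyond the axis in the end bins. The solid line at 0 marks no interaction and the dashed line at 1 the mean of replicates 2 and 3. Most genes lie between these lines, with a median of 0.283.

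Promoters of the sorted genes were searched for 7 motifs on both strands of the 250 bases before the gene start, without a test. The ABRE core ACGTG was in 41.8% of the 79 promoters of genes with a larger response in wild type and a negative interaction, against 23.7% of all tested promoters and 21.8% of all 32545 promoters read. Those 79 genes rose in both genotypes. The core was in 29.5% of the 132 promoters of genes with a larger rise in the line. It was in 31.7% of the 41 of genes that fell in the line and rose in wild type. The G-box CACGTG, which contains that core, was in 17.7% of the same 79 and in 7.72% of tested promoters. The W-box core TTGAC was in 54% of the 50 promoters of genes that rose in the line and fell in wild type and in 29.3% of the 41 of the other direction, against 44.7% of tested promoters. The DRE core CCGAC was in 8% and 26.8% of those sets, against 13.5%. The heat shock element was in 15.2% of the 79 promoters named above and 9.47% of tested ones. The evening element AAATATCT was in 9.84% of genes with a positive interaction that responded in wild type only, against 5.10%, and the GCC box GCCGCC was in 0 of the 80 promoters of the wild-type-only class with a negative interaction, against 2.06%. A match is of letters alone.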

How the data were processed

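RNA from leaves of 12 samples, 3 in each of 4 groups, was sequenced, and each library has a column of counts and one of FPKM in 1 deposited table of 34218 genes. Reads were aligned to TAIR10 with HISAT2 2.0.1, and bcl2fastq 2.17.1.14 and cutadapt 1.9.1 were also used, per the submitters' processing notes. How reads were counted, and whether by strand, is not given in the sources used here. The authors deposited raw counts per gene, not normalized, and FPKM, which divides a count by exon length and by the library total. Deposited FPKM matched a recalculation from the counts to within 0.005. The named genes FRO3, ADO3, COL6, CM3, SARD1, AKT1, AT2G30766, GSTF10, ORP1A, P5CSA, JAZ13, EXLA1, HSP17.4A, P5CSB, WRKY69, CRK10, CHLM, LLP, CYP84A4, PI4KG3, PER64, CESA4 and CYCD3;2 overlap a gene of the opposite strand, and reads of the 2 cannot be told apart.

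Counts of the 17038 genes that reached a mean of 1 FPKM, which hold 99.71% of all counts, were fitted with edgeR 4.0.16 in R 4.3.3, with TMM scaling, a mean per group and the quasi-likelihood test. Contrasts were the interaction, the salt response of each genotype and the genotype difference in each treatment, on the log2 scale, each adjusted by the Benjamini-Hochberg method over all tested genes at a threshold of 0.05. SEs were derived from the test statistic. A gene list is described by its counts and median beside those of all tested genes. Where a group had 0 counts, a bound used 3 counts over the group. The p-values measure the spread between these samples, called biological replicates in the series description.

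The text names the 10 highest and 10 lowest interactions among genes called with and without replicate 1 of the salt-treated line, with a symbol and a mean FPKM of at least 5 in some group, the 2 smallest adjusted p of each class and sign, the 3 called members with the smallest adjusted p of each list (or the smallest where 0 were called), and 9 genes of sinapate synthesis and salt tolerance. Members and lists were chosen with earlier results of these data known. Alternatives were median-of-ratios scaling, library totals alone, DESeq2 1.42.0, limma 3.58.1 on log2(FPKM + 1) and log2(FPKM + 0.1), other filters on low values, a replicate block and each library left out. The steps were tested on simulated data. Promoters came from the RefSeq TAIR10.1 genome, and symbols from the table (14769 genes) or its annotation (603). The wheat transcript was not analysed here.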

Additional observations from a re-analysis of the deposited data

Results flagged for a closer look

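The responses of the genotypes to salt differed by the test of the difference itself in 1001 genes. Among genes with called responses in opposite directions, those named for the smallest adjusted p of each sign are given here. The log2 interaction was 3.23 for NANA and 2.63 for PME41, which rose in the line and fell in wild type. It was -1.46 for CM3 and -2.81 for UMAMIT17, which fell in the line and rose in wild type. Each held in all 12 fits with 1 library left out.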

How the results depend on the processing

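The count of interaction genes depended on the method. DESeq2 called 2531 genes (1330 positive and 1201 negative), with 891 in the line-only, 456 in the wild-type-only, 749 in the larger-in-line and 302 in the larger-in-wild-type class. limma on log2(FPKM + 1) called 1569, 1080 of them negative, with 472 line-only, 530 larger-in-line and 196 larger-in-wild-type genes, and on log2(FPKM + 0.1) 957 negative ones. Library totals alone gave 837 negative calls. The share of positive calls was 49.8% with TMM, 58.2% with median-of-ratios scaling, 32.8% with library totals and 31.2% and 27.5% with limma. When a response also had to be 2-fold, the larger-in-line, larger-in-wild-type and opposite classes held 177, 71 and 16 genes. With 1 library left out the count ran from 129 to 6270, with 59 to 2345 positive and 70 to 3925 negative calls, 32 to 1691 line-only, 10 to 771 wild-type-only, 40 to 2698 larger-in-line, 26 to 545 larger-in-wild-type and 21 to 507 opposite genes. The cause of these shifts was not tested.

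Deviations of samples with the same replicate number from their group means had correlations of -0.259 to 0.239 over 18 pairs, 4 of them above 0.1. Pairs with different numbers ran from -0.255 to 0.306. With means of only 3 libraries, 1 of which stands apart, these values cannot decide whether the numbers pair samples. A replicate block gave 644 calls, 305 positive, with 177 line-only, 123 wild-type-only and 183 larger-in-line genes. Named genes changed sign in 4 fits, all of uncalled genes with 1 library left out, where the interaction ran from -0.03 to 0.35 for NHX7, from -0.28 to 0.76 for P5CSA and from -0.18 to 0.40 for NCED3. Of the named calls, those of CER1, PP2A5, RPL10C, GSTU19, LURP1, TAT3, AKT1, WRKY54, NHX4, CRK10 and PER64 were lost under the replicate block (adjusted p 0.05 to 0.068). With limma on log2(FPKM + 1) the calls of CER1, MYB90, RPL10C, TAT3, ETC2, ABI5, JAZ13, HSP17.7 and PER64 were lost (adjusted p 0.056 to 0.45), on log2(FPKM + 0.1) those of RPL10C, TAT3, ABI5 and PER64 (0.056 to 0.072), and with library totals that of RPL10C (0.05). Filters of no minimum FPKM and of 5 kept the main count within 1.5 times, and a filter over 11 libraries gave 6264 calls without replicate 1 of the salt-treated line. With 3 libraries a group, 1 of which stands apart, calls near the threshold are uncertain.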

Other observations

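Growth, clock and translation lists held 1 call each or 0 with 12 libraries, and more without replicate 1 of the salt-treated line. Paired shares and medians below are in that order. Of 17 circadian clock genes 1 was called, ADO3 (FKF1), a blue-light receptor gene, with 18.9, 19.8 and 16.1 FPKM in the salt-treated line and 8.11, 5.95 and 7.42 in the untreated line, against 6.36, 6.92 and 7.51 in salt-treated wild type and 5.98, 6.08 and 5.29 in untreated wild type. The salt-treated line was above all other libraries (interaction 1.15 ± 0.21, edgeR adjusted p = 0.015), and the call ended without replicate 1 of salt-treated wild type (adjusted p 0.057). The list does not hold PRR3, a pseudo-response regulator gene of the core, whose call was negative. PRR3 had responses of -1.33 in the line and -0.01 in wild type (interaction -1.33, edgeR adjusted p = 0.011). Without replicate 1 of the salt-treated line 5 clock genes of the list were called, 1 positive and 4 negative. The shares were 5.88% and 29.4% of the list, against 5.88% and 36.8% of all genes, with median interactions of -0.07 and -0.17, against -0.07 and -0.11 over all genes. Of 16 early auxin genes and 10 brassinosteroid genes the calls were IAA19 and CYP85A2, described above. The auxin-conjugating enzyme gene GH3.6, also described above, is outside the auxin list and was called positive (3.84, edgeR adjusted p = 0.0088). Without replicate 1 of the salt-treated line 7 auxin genes of the list were called, 3 positive and 4 negative, and 6 brassinosteroid genes, 3 in each direction. The shares were 6.25% and 43.8% of the list, against 5.88% and 36.8% of all genes, and 10% and 60% for brassinosteroid. The median interactions were -0.13 and -1.01, against -0.07 and -0.11 over all genes, and 0.42 and 0.25 for brassinosteroid. Of 187 cytosolic ribosomal protein genes 1 was called, RPL10C, with 157, 491 and 401 FPKM in the salt-treated line and 87.6, 105 and 71.5 in the untreated line, against 85.5, 95.5 and 83.2 in salt-treated wild type and 69.0, 66.1 and 66.0 in untreated wild type (interaction 1.64 ± 0.43, edgeR adjusted p = 0.048, called in 1 of the 12 fits with 1 library left out, highest adjusted p 0.11). The ribosomal list had 18 calls without replicate 1 of the salt-treated line, 4 positive and 14 negative, that is 0.535% and 9.63% of the list, against 5.88% and 36.8% of all genes, with median interactions of -0.14 and -0.13, against -0.07 and -0.11 over all genes. With 12 libraries edgeR called 0 of 13 proline and raffinose genes (5 at an unadjusted p under 0.05, and 3 positive and 1 negative by DESeq2), 0 of 8 chlorophyll breakdown genes (2 at an unadjusted p under 0.05 and 0 by DESeq2) and 0 of 6 cell cycle genes (likewise 2 and 0). Without replicate 1 of the salt-treated line it called 6 proline and raffinose genes, 3 in each direction, 5 chlorophyll breakdown genes, 2 positive and 3 negative, and 2 cell cycle genes, 1 in each direction. The second shares were 46.2%, 62.5% and 33.3%, against 36.8% of all genes. The median interactions were -0.12 and -0.27 for proline and raffinose, -0.29 and -0.30 for chlorophyll breakdown and -0.03 and -0.24 for the cell cycle. The member with the smallest adjusted p was P5CSB (0.96, edgeR adjusted p = 0.069), RCCR (-0.72, edgeR adjusted p = 0.085) and CYCD3;2 (-0.52, edgeR adjusted p = 0.12) in these lists, and without replicate 1 these had 0.68 (edgeR adjusted p = 0.015), -0.96 (edgeR adjusted p = 0.00053) and -0.65 (edgeR adjusted p = 0.012).

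Some genes of the core called in all 12 fits with 1 library left out, chosen after their values were seen, belong to other pathways. Wax and surface lipids were represented by FAR1, a fatty acyl-CoA reductase gene, with a log2 response of 4.34 in the line and 1.28 in wild type (interaction 3.06, adjusted p 0.012). The glucosinolate breakdown gene NSP5 had responses of 4.41 in the line and 1.83 in wild type (interaction 2.59, adjusted p 0.011). The ubiquitin ligase genes RGLG2 and RGLG1 had interactions of 2.57 and 1.30 (adjusted p 0.011 and 0.013). Negative interactions included those of 2 amino acid genes. BCAT2, for a branched-chain aminotransferase, had responses of 0.65 in the line and 3.33 in wild type, and PGDH, for the dehydrogenase that begins serine synthesis from phosphoglycerate, 1.63 in the line and 3.0 in wild type (interactions -2.68 and -1.36, both with an adjusted p of 0.011). CHAT, whose enzyme makes a leaf volatile ester, had responses of 4.18 in the line and 6.30 in wild type (interaction -2.12, adjusted p 0.011). GID1A, a gibberellin receptor gene, had responses of -0.59 in the line and 0.92 in wild type (interaction -1.51, adjusted p 0.011).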
